A study of Homo sapiens with 6 samples.

Results

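The SRC family and a small group of related cytoplasmic tyrosine kinases were followed probe set by probe set in SKOV-3 and Caov-3, established human ovarian carcinoma cell lines. The 9 genes were SRC, YES1, FYN, LYN and LCK of the SRC family, their inhibitor CSK, the paired kinases FES and FER, and ABL1. All 26 probe sets carrying one of these symbols and no other were taken, out of 41091 probe sets with a single symbol that stood for 19775 genes. The group was chosen by the measured signals of SRC and FES in Caov-3 with interleukin-6 (IL-6), so the values of these probe sets on those arrays are a description. SRC entered the fits over all arrays as every probe set did, and what they give for it is a description too.

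Each line contributed 3 arrays (Affymetrix U133 Plus 2.0). In the untreated group no agent was added. In the IL-6 group 30 ng/ml of the cytokine was given for 1 h. In the siltuximab plus IL-6 group, an antibody that neutralises IL-6, siltuximab (CNTO328), was given 4 h ahead of the same 1 h exposure to the cytokine. The antibody dose is not given in the labels, and a group with the antibody alone was not analysed here. Every group had 1 array carrying RNA pooled from 3 flasks, so no group has a replicate, and the flasks' own spread is not seen. The stated aim was to see what the antibody does to IL-6-driven expression.

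SRC family kinases sit on the inner face of the plasma membrane and carry SH3, SH2 and kinase domains. CSK phosphorylates a tyrosine in their tail, which folds the kinase into its inactive form, and tyrosine phosphatases remove that phosphate. SRC, YES1 and FYN are made in most cell types, whereas LYN and LCK are best known from blood cells. FES and FER share an F-BAR domain at their start and an SH2 domain before the kinase domain, and ABL1 is a kinase of cytoplasm and nucleus. IL-6 acts through gp130 and JAK kinases on STAT3, which SRC family kinases, FES and FER can also phosphorylate. The activity of these enzymes is set largely by phosphorylation, which RNA arrays do not measure.

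The promoters of FES and YES1 are shown because their probe sets had the largest and the smallest ratio of highest to lowest array among the 26, at 30.8 for FES 205418_at and 1.29 for YES1 202932_at. Each sequence is the 250 bases before the annotated gene start in RefSeq (GRCh38.p14), read 5′ to 3′ on the gene's strand, at chr15:90884796-90885045 (+ strand) for FES and chr18:812243-812492 (− strand) for YES1. Capitals mark GC boxes (GGGCGG on either strand), the short motif bound by SP1-type factors.
FES: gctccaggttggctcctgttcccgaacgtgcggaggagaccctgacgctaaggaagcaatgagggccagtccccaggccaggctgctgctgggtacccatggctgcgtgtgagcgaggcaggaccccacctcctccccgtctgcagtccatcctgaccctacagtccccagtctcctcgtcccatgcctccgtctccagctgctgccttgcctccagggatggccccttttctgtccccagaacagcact
YES1: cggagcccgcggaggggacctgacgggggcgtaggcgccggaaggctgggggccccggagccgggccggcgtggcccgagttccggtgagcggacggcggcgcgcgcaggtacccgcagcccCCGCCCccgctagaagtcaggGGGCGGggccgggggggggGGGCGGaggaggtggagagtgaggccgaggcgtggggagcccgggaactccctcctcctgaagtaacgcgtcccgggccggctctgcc
The YES1 window held 3 GC boxes, starting at -128, -107 and -88 from the gene start, and was 79.2% G or C. The FES window held none and was 64.4% G or C. Of 35116 RefSeq promoter windows of this length, 42.6% held a GC box. The STAT palindrome TTCNNNGAA was in 6.57% of windows, the AP-1 motif TGANTCA in 6.57% and the ETS motif CCGGAAGT in 3.42%, each searched on both strands. None of these 3 was in any window of the 7 members with an entry (YES1, FYN, LCK, CSK, FES, FER and ABL1). GC boxes were also found in windows of FYN and ABL1. Overlapping motifs were not removed, and a match is only a description of these letters.

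Signals are the deposited linear intensities, which had been scaled so that the trimmed mean of each array is about 500.1. The median of all probe sets with a single symbol lay between 102 and 122 on the 6 arrays and serves as a guide to low signal. On the array for Caov-3 with IL-6, 1350 of 23169 probe sets (5.83%) lay 2-fold or more under each of the remaining arrays of the line, against 74 to 141 (0.319% to 0.609%) for each of the other 5 arrays. Its ratio of the 5′ to the 3′ probe set of ACTB was also the lowest, at 0.494 against 0.643 to 0.767 on the others, whereas that of GAPDH, at 1.05, lay within the 0.957 to 1.07 of the others. These differences bear on every value of that array, and their part in the results was not tested.

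Of the epithelial and ovarian carcinoma markers, 5 of 10 genes were at or above the array median in SKOV-3 (KRT18, KRT7, KRT8, EPCAM and PAX8) and 9 of 10 in Caov-3. KRT19, CDH1, MSLN and MUC16 were below the median on all SKOV-3 arrays, and WT1 was below it on all 6. Of 9 leukocyte markers, PTPRC, SPI1, CD3D, CD3E and CD2 were below the median on every array. CD79A was at or above it on all 6 (149 to 344), CD14 on 4, LCP1 on 2 and ITGAM on 1. The summed signal of the 9 was 444 to 914 in SKOV-3 and 980 to 1106 in Caov-3, with CD14 at 77.6 to 135 and 573 to 667. Of 7 fibroblast and endothelium markers only COL1A1 and PECAM1 reached the median, with a summed signal of 499 to 709 in SKOV-3 and 4901 to 5861 in Caov-3. None of these markers was listed at 0. In a culture, fewer cells with a transcript and less of it per cell cannot be told apart.

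SRC, the founding member of the family, was read by 7 probe sets, and 2 of them were above the array median on at least 2 arrays. Probe set 213324_at gave 444 in untreated SKOV-3 cells, 532 with IL-6 and 599 with siltuximab plus IL-6. In Caov-3 it gave 23.9 untreated, 288 with IL-6 and 237 with siltuximab plus IL-6. The untreated Caov-3 array stood far below the other 5, and all 3 Caov-3 arrays were below all 3 SKOV-3 arrays.

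The other SRC probe set, 1558211_s_at, gave 145, 92.3 and 67.9 in SKOV-3 and 140, 57.3 and 55.1 in Caov-3, each in the order untreated, IL-6, siltuximab plus IL-6. Here the untreated array was the highest of each line, whereas for 213324_at it was the lowest of each line. The remaining 5 SRC probe sets were below the median on all 6 arrays, with signals from 1.09 to 57.2. One of them, 221281_at, gave 8.97, 39.2 and 46.0 in Caov-3 and 7.46, 33.6 and 4.70 in SKOV-3. The probe sets of SRC therefore do not share a single pattern over the arrays.

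YES1, a close relative of SRC, gave strong and steady signals on 2 of its 3 probe sets. Probe set 202933_s_at gave 4361, 5345 and 5193 in SKOV-3 and 4765, 6390 and 5964 in Caov-3. Probe set 202932_at gave 3612, 3359 and 3317 in SKOV-3 and 3980, 4284 and 4116 in Caov-3. The untreated array was the lowest of its line for 202933_s_at in both lines. For 202932_at the lines did not overlap, Caov-3 being higher. The YES1 probe set 210917_at stayed between 3.07 and 30.5, below every array median.

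FYN, which couples receptors and adhesion sites to downstream adaptors, was above the array median on at least 3 of the 6 arrays with each of its 5 probe sets. Probe set 210105_s_at gave 1452, 1484 and 1373 in SKOV-3 and 1714, 1848 and 1809 in Caov-3. Probe set 216033_s_at gave 440, 441 and 506 in SKOV-3 and 592, 650 and 664 in Caov-3. For both, every Caov-3 array exceeded every SKOV-3 array. The remaining 3 (212486_s_at, 243006_at and 1559101_at) lay between 81.0 and 278, and the lines overlapped.

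LYN, a kinase of B cell and myeloid receptor signalling, had 3 probe sets above the array median on all 6 arrays. Probe set 210754_s_at gave 871, 827 and 782 in SKOV-3 and 725, 504 and 759 in Caov-3. Probe set 202626_s_at gave 578, 692 and 584 in SKOV-3 and 649, 395 and 647 in Caov-3. Probe set 202625_at gave 631, 730 and 781 in SKOV-3 and 507, 785 and 632 in Caov-3. The Caov-3 IL-6 array was the lowest of the 6 on the first and second of these and the highest on the third.

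LCK, the T cell member, gave low signals. Its probe set 204890_s_at gave 108, 8.71 and 67.1 in SKOV-3 and 5.25, 11.9 and 29.7 in Caov-3, and 204891_s_at ranged from 3.44 to 75.3. Neither reached the array median on any array, as with the T cell markers CD3D, CD3E and CD2.

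CSK, the kinase that holds the family inactive, gave 1684, 1597 and 1673 in SKOV-3 and 1121, 1125 and 992 in Caov-3 (202329_at). All SKOV-3 arrays were above all Caov-3 arrays, and the arrays within a line lay close together. ABL1, whose fusion with BCR drives chronic myeloid leukaemia, gave 1037, 824 and 844 in SKOV-3 and 796, 572 and 617 in Caov-3 (202123_s_at). The lines did not overlap, and the untreated array was the highest in each.

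FES, best known from myeloid cells, was read by 1 probe set, 205418_at. It gave 16.8, 4.42 and 22.3 in SKOV-3 and 12.8, 136 and 111 in Caov-3. Only the array of Caov-3 with IL-6 was above its median, and the Caov-3 array with siltuximab plus IL-6 was just under its own median of 121. Of the myeloid markers on the same Caov-3 arrays, ITGAM was 37.3, 110 and 13.2 and was likewise above the median only with IL-6. SPI1 was 4.93, 26.4 and 4.73, and CD14 was 667, 573 and 604. Their part in the FES signal was not tested.

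FER, the widely made partner of FES, was read by 3 probe sets. Probe set 227579_at gave 626, 548 and 682 in SKOV-3 and 1306, 1349 and 835 in Caov-3. Probe set 232064_at gave 191, 212 and 227 in SKOV-3 and 454, 288 and 357 in Caov-3. Both were higher on every Caov-3 array. Probe set 206412_at gave 241, 284 and 290 in SKOV-3 and 366, 142 and 297 in Caov-3, where the IL-6 array was the lowest of all 6.

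**Figure D1:**
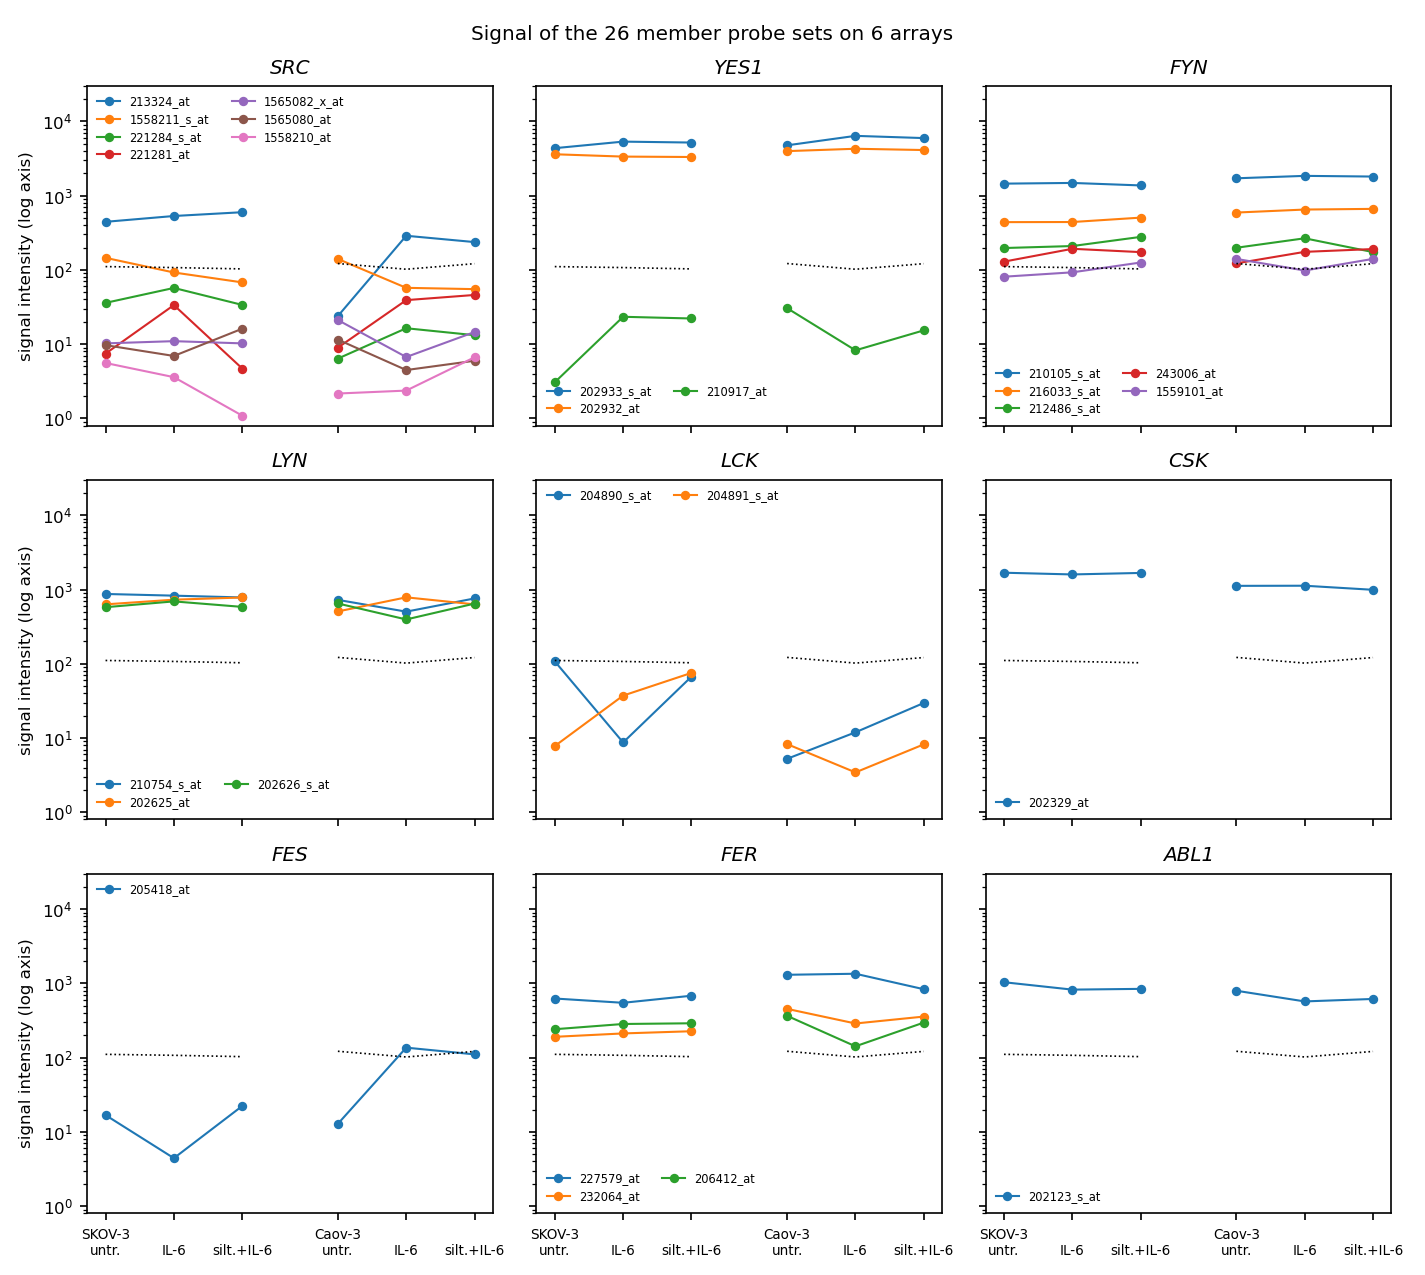
Signal (linear intensity on a log axis) of each probe set of the 9 genes on the 6 arrays, 1 panel per gene, with 1 line per probe set; untr. is untreated, silt. is siltuximab, and the dotted line is the array median. SRC 213324_at is at 23.9 on the untreated Caov-3 array, FES exceeds the median on no array but that of IL-6 in Caov-3, and CSK and the bright probe sets of YES1 and FYN run nearly flat within a line.

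Folds within a line set 1 array over 1 array and have no replicate check. They are log2 differences of signal plus a pseudocount of 17.1, which shrinks the folds of low signals. A probe set entered if the brighter of its signals reached the median of the array it came from, and a fold of at least 2 was counted. In Caov-3 with IL-6 against untreated, 4 of 18 member probe sets passed, 2 higher and 2 lower. Over all 21838 probe sets, 1.07% were as much higher and 7.64% as much lower, so that 12.3% of the 2-fold probe sets were higher. That share was 26.4% after quantile and 23.2% after cyclic loess normalization. Nothing is read from these counts for SRC and FES, since these values chose the group.

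SRC 213324_at was 2.90 higher on the log2 scale and FES 205418_at 2.36 higher. Both entered through the IL-6 array, and their untreated signals of 23.9 and 12.8 were far below that array's median of 122, so the size of these folds depends on the pseudocount. The robust SD of probe sets of like brightness was 0.625 for SRC and 0.742 for FES. SRC 1558211_s_at was 1.08 lower and FER 206412_at 1.27 lower on that scale. Nearest to 2-fold among those past it was SRC 1558211_s_at at -1.08, and nearest from outside was LYN 202626_s_at at -0.69. Most 2-fold probe sets in this comparison (1668 of them) were lower, as these were. SRC 1558211_s_at was -0.85 after quantile and -0.84 after cyclic loess normalization, under 2-fold. With the median of 111 as pseudocount, SRC 213324_at was 1.57 and FES 0.998.

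In Caov-3 with siltuximab plus IL-6 against IL-6, 0 of 17 member probe sets passed, against 6.51% of all probe sets higher and 0.728% lower. SRC 213324_at was -0.27 and FES -0.26, beside a robust SD for their brightness of 0.371 and 0.492. Both folds use the IL-6 signals that chose the group, so they are a description, and FES entered through the IL-6 array alone. FER 206412_at was the largest at 0.98, on the way back to its untreated signal. The 2 comparisons share the IL-6 array.

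In Caov-3 with siltuximab plus IL-6 against untreated, which leaves the IL-6 array out but shares the untreated one, 2 of 17 passed. SRC 213324_at was 2.63 higher, again over the low untreated signal of 23.9, and SRC 1558211_s_at was 1.13 lower. Of all probe sets 0.63% were at least 2-fold higher and 0.788% lower. Nothing is read from this count, since SRC signals in Caov-3 chose the group and these folds share their untreated array with the IL-6 folds. FES (2.09) did not enter, because neither array reached its median. The Caov-3 untreated array lay 2-fold or more under the remaining arrays of its line for 114 probe sets (0.492%), among them SRC 213324_at, and both SRC folds rest on that 1 array.

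SKOV-3 gave no member past 2-fold. Of 16 entered for IL-6 against untreated none passed, beside 1.34% of all probe sets higher and 1.3% lower. For siltuximab plus IL-6 against IL-6 it was 0 of 16 beside 0.5% and 0.804% (38.4% of the 2-fold probe sets higher, but 49.4% after quantile and 50.5% after cyclic loess normalization), and against untreated 0 of 17 beside 0.835% and 1.29%. SRC 213324_at was 0.25 with IL-6 and 0.42 with siltuximab plus IL-6, and SRC 1558211_s_at was -0.57 and -0.93. With a pseudocount of 1 the last of these was -1.09, past 2-fold, so its absence from the count depends on the pseudocount. FES entered none of the 3. Whether the folds of the lines differ was not tested, as each rests on single arrays.

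**Figure D2:**
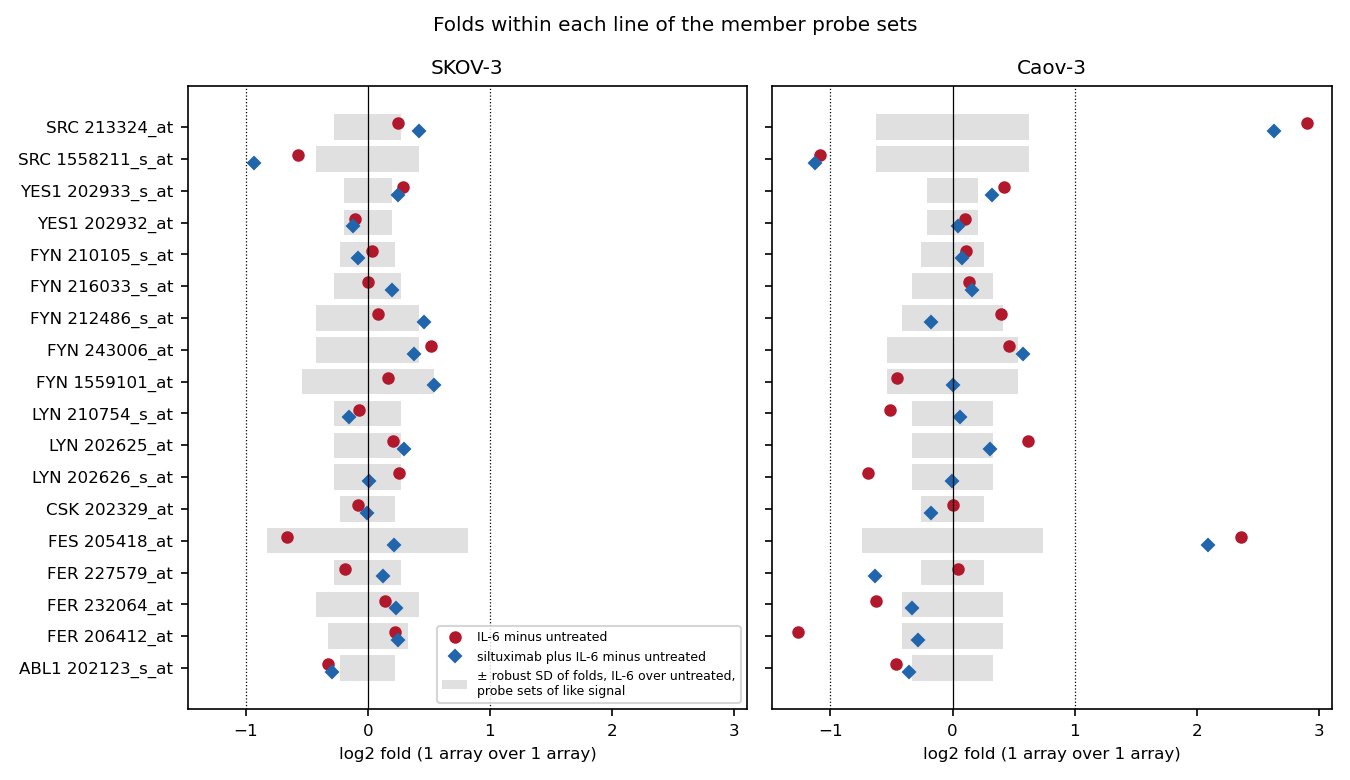
Log2 folds within each line for the 18 member probe sets that entered a Caov-3 comparison, with a grey band of ± 1 robust SD of the IL-6 folds of all probe sets of like brightness and dotted lines at 2-fold; FES is drawn in SKOV-3 although it did not enter there. In Caov-3 SRC 213324_at is at 2.90 and 2.63 and FES at 2.36, and their IL-6 signals chose the group. IL-6 folds of probe sets of FER, LYN, YES1 and ABL1 also lie outside the band there, and in SKOV-3 no point reaches 2-fold.

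**Figure D3:**
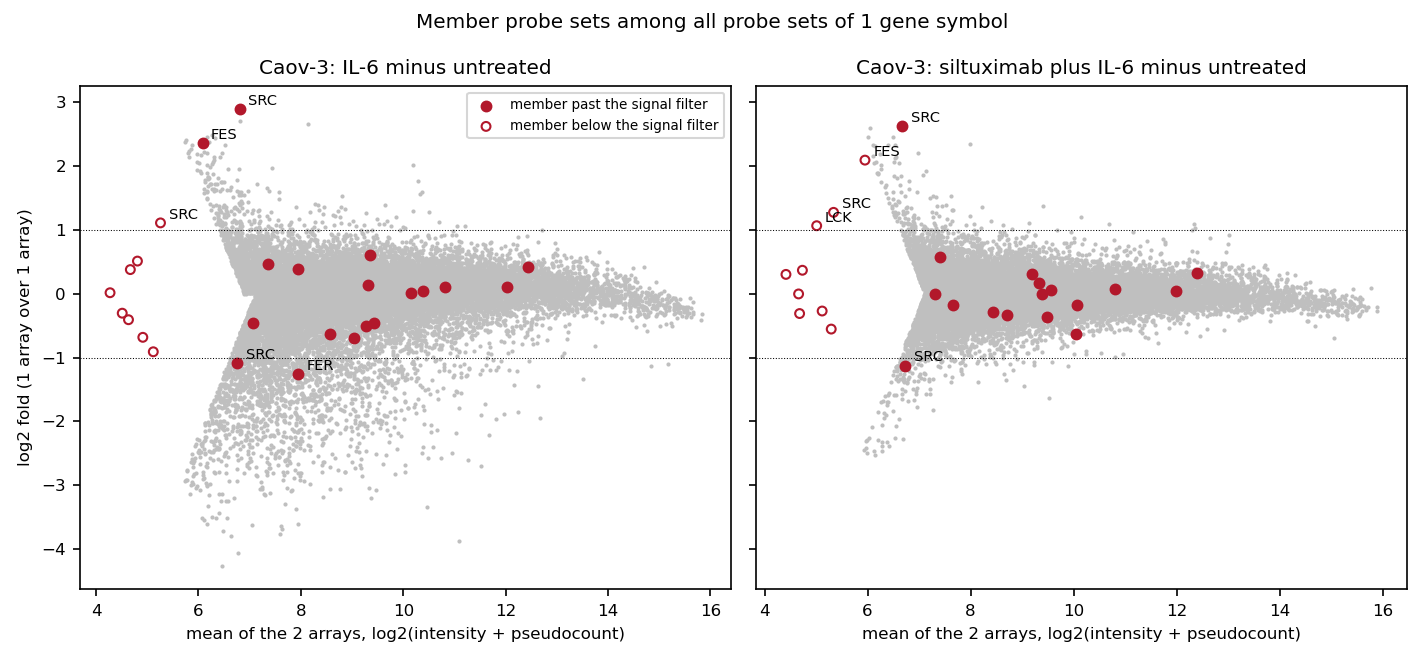
Log2 fold against mean log2 signal for all probe sets that entered in Caov-3 (grey), with members in red and open symbols for those that did not enter. SRC 213324_at lies at 2.90 and 2.63, and the IL-6 panel holds more points below 0 than above at 2-fold (1668 against 234).

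Differences between the lines were tested with limma over all 6 arrays, with treatment as a factor, so that the 3 treatments of a line are its only repeats. Probe sets entered if at least 2 arrays were at or above their median, which left 23169, including 17 of the 26 members (SRC 2, YES1 2, FYN 5, LYN 3, FER 3, CSK 1 and ABL1 1). LCK and FES did not enter. A Benjamini-Hochberg adjusted p under 0.05 was called. Of the 17 members 9 were called, 6 higher and 3 lower in Caov-3, beside 62.8% of all probe sets called (31.5% higher and 31.3% lower). The share of members called, 52.9%, was near or under that background.

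Lower in Caov-3 were SRC, CSK and ABL1. SRC 213324_at differed by -1.87 (SE 0.517). Its call uses the Caov-3 signals that chose the group, so it is counted but supports nothing. The difference was -3.49 between untreated arrays, -0.85 with IL-6 and -1.28 with siltuximab plus IL-6. It was -1.06 without the untreated array of Caov-3 or of SKOV-3, and -2.39 without the IL-6 array of either. CSK differed by -0.61 (SE 0.0953, limma adjusted p 0.00285) and was lower at each treatment. ABL1 differed by -0.44 (SE 0.104, limma adjusted p 0.0132) and was also lower at each treatment.

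Higher in Caov-3 were FER, FYN and YES1, with 2 probe sets each. FER 227579_at differed by 0.87 (SE 0.205, limma adjusted p 0.0134) and FER 232064_at by 0.74 (SE 0.205, limma adjusted p 0.0236). FYN 216033_s_at differed by 0.45 (SE 0.119) and FYN 210105_s_at by 0.31 (SE 0.0849), with limma adjusted p 0.0208 and 0.0216. YES1 202932_at differed by 0.27 (SE 0.0765) and YES1 202933_s_at by 0.19 (SE 0.0661), with limma adjusted p 0.0268 and 0.0461. The arrays of 202933_s_at overlapped between lines.

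The 8 members not called had differences between -0.33 and 0.30. They were all 3 LYN probe sets, SRC 1558211_s_at, FER 206412_at and 3 of FYN. LYN 210754_s_at did not overlap between lines but was not called (-0.33, limma adjusted p 0.112). The arrays of the lines did not overlap for 9 of the 17 members, beside 69.9% of all probe sets.

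The calls rest on few arrays. With treatment as a factor, leaving out the array of a treatment gave the same difference whichever line it came from. The checks that follow are therefore 1 per treatment rather than 1 per array. Leaving out the untreated or the siltuximab array of either line ended the calls of ABL1 (limma adjusted p 0.0534 to 0.0901), both FYN probe sets (0.069 to 0.157), FER 232064_at (0.0804 to 0.112) and YES1 202932_at (0.0506 to 0.155). FER 227579_at lost its call without either untreated array (0.0815 and 0.0817), and YES1 202933_s_at without any 1 array (0.0746 to 0.201). The fits without an untreated or a siltuximab array called 47% to 50.8% of all probe sets, against 62.8% with all arrays. CSK kept its call without any 1 array (limma adjusted p up to 0.0338).

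**Figure D4:**
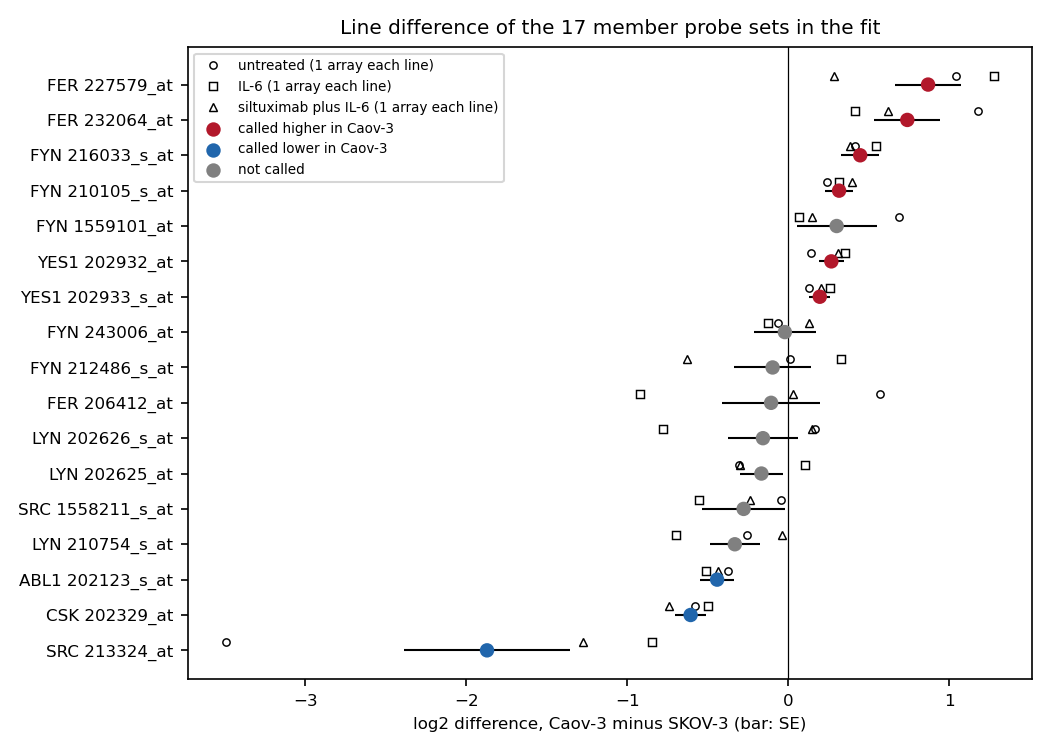
Difference of Caov-3 minus SKOV-3 (log2) for the 17 member probe sets in the limma fit with bars of ± 1 SE, and the difference at each treatment as open symbols. Differences run from -1.87 for SRC 213324_at to 0.87 for FER 227579_at, and the open symbols spread widest for SRC 213324_at.

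Treatment was tested over both lines in the same fit, as siltuximab plus IL-6 against untreated. Only the difference itself leaves out the IL-6 arrays. Its SE and p-values rest on the spread in the fit of all arrays, the IL-6 arrays included. The test is therefore not independent of the Caov-3 IL-6 array, whose signals chose the group. Of 23169 probe sets 0% were called (0, with 1046 at an unadjusted p under 0.05 and a smallest limma adjusted p of 0.528). Of the 17 members 0 were called and 3 had an unadjusted p under 0.05. These 3 were SRC 1558211_s_at (-1.03, SE 0.316), YES1 202933_s_at (0.29, SE 0.0809) and ABL1 202123_s_at (-0.33, SE 0.128). The other YES1 probe set in the fit, 202932_at, was at -0.04 (SE 0.0937). SRC 213324_at was at 1.52 with an SE of 0.633, as a description. It was 0.31 without the untreated Caov-3 array and 2.74 without the untreated SKOV-3 array.

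Other genes of the pathway were counted in the same fit of the lines. Beside 62.8% over all probe sets, 1 of 3 probe sets of the remaining SRC-type kinases was called. This was FRK, a kinase of epithelial cells, at 67.3, 46.3 and 52.2 in SKOV-3 and 472, 593 and 499 in Caov-3 (2.90, limma adjusted p 0.000208). Of other cytoplasmic tyrosine kinases 11 of 14 probe sets, of 7 genes, were called, 3 higher and 8 lower, beside 31.5% and 31.3% of all probe sets. Their median was -1.66 beside -0.03 over all probe sets.

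ABL2, the close relative of ABL1, was among those lower in Caov-3. Its probe set 226893_at gave 2282, 2274 and 2635 in SKOV-3 and 407, 235 and 317 in Caov-3 (-2.87, limma adjusted p 9.08e-05). Its probe set 231907_at differed by -3.84 (limma adjusted p 0.00102), and TXK, a kinase of T cells, by -2.70 (limma adjusted p 0.000796). SYK, the kinase of B cell receptor signalling, was higher in Caov-3 by 2.60 (limma adjusted p 0.000892).

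Of the regulators, such as phosphatases and adaptors acting on the family, 6 of 30 probe sets were higher and 4 lower, with a median of -0.10. This is a smaller share called than the 62.8% of all probe sets. The phosphatase PTPN22, a partner of CSK in lymphocytes, was higher in Caov-3 by 3.30 (limma adjusted p 0.00041), and PTPN6 by 1.42. The phosphatase PTPN2 was lower in Caov-3, at -1.33. Of substrates and adaptors 12 of 53 were higher and 12 lower, also a smaller share than 62.8%, with a median of -0.01. CAV1, the coat protein of caveolae and a SRC substrate, differed by -3.43 and -3.25 on its probe sets, and the adaptor NEDD9 by 3.12 and 2.41. None of these lists had a member called for siltuximab plus IL-6 against untreated.

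With IL-6 in Caov-3, 1 of 51 substrate and adaptor probe sets was at least 2-fold higher and 9 lower, beside the 1.07% and 7.64% over all probe sets. The actin regulator WASL (205809_s_at) gave 572 untreated, 147 with IL-6 and 619 with siltuximab plus IL-6, and CTNNB1 (1554411_at) gave 251, 62.9 and 212. Both were lowest on the IL-6 array, like FER 206412_at. Another WASL probe set, 205810_s_at, did not share this and gave 55.0, 166 and 258. CBL (229010_at), the ubiquitin ligase for active kinases, gave 235, 86.6 and 201 in that order. STAT3 (208991_at), also on the list of substrates, gave 2521, 832 and 1254 in Caov-3, and 1330, 2527 and 1463 in SKOV-3. Its probe set 208992_s_at gave 1420, 526 and 726 in Caov-3, and 718, 1180 and 636 in SKOV-3. STAT3 225289_at gave 784, 281 and 832 in Caov-3. In SKOV-3 it gave 554, 526 and 567 and did not share the rise with IL-6. In SKOV-3, 1 of 52 substrates and adaptors was at least 2-fold higher, CRKL (325, 695 and 331), and 0 lower, which is near the 1.34% and 1.3% over all probe sets.

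The patterns most like those of SRC and FES were sought by Pearson correlation of log2 signal over the 6 arrays. The 13128 probe sets searched had at least 2 arrays at or above their median and log2 values spanning at least 1. Closest to SRC 213324_at were STX17 (0.992), C5orf24 (0.991), NRP2 (0.989), HLA-DPA1 (0.988) and PPFIA3 (0.988). Closest to FES 205418_at were LRRCC1 (0.987), SMAD6 (0.985), PLEKHA6 (0.984), SERTAD4-AS1 (0.979) and CFAP73 (0.973). Neither FER, nor SRC in the search for FES, was among these. All other members lacked a probe set that met both conditions, so their absence was fixed in advance. The 6 arrays share 2 lines and 1 scaling, and these values describe these arrays only.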

How the data were processed

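RNA of 6 groups was measured on 1 array each. Per the submitters' processing notes, the deposited intensities were made by the authors with Expression Console (Affymetrix) and MAS5. No version of either is given in the sources used here. A trimmed mean of about 500.1 per array shows scaling by array. Detection calls were not used. Genes came from the platform annotation, and 41091 of 54675 probe sets had a single symbol.

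Values were taken as log2 of signal plus 17.1, the 20th percentile of values, with no further normalization. The limma fit (limma 3.58.1, R 4.3.3) used line and treatment as factors, a trended prior variance and 2 residual degrees of freedom. A run on simulated data checked the line contrast only. It held a far smaller share of changed probe sets than was called here, so it does not measure the error of these calls. Other steps used Python 3.11.15. Robust SDs are scaled median absolute deviations within 10 brightness classes. Promoters are from RefSeq.

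Named were all members and 5 genes most like SRC and FES. Of each list, up to 4 called probe sets with the largest line difference and up to 3 with the largest fold per comparison were picked out. Only some of these are described above. Among those left out, PTK6, PTPN11, TNK1 and ARHGAP35 each had a probe set past 2-fold in a SKOV-3 comparison. Members and lists were chosen with earlier results of these data known. P-values measure only the spread between these arrays, whose number limits all precision. Alternatives changed scaling, pseudocount, filter, probe set choice, prior variance, block and arrays used.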

Additional observations from a re-analysis of the deposited data

Results flagged for a closer look

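FER 206412_at was picked out because its folds with IL-6 against untreated ran in opposite directions in the lines, 0.22 in SKOV-3 and -1.27 in Caov-3 on the log2 scale, the latter past 2-fold. The difference between the lines was not tested, as each fold sets 1 array over 1 array. On the array of Caov-3 with IL-6, 5.83% of probe sets lay 2-fold or more under each of the remaining arrays of the line. The other FER probe sets gave 0.05 (227579_at) and -0.62 (232064_at) in Caov-3.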

How the results depend on the processing

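Against 6 members called higher in Caov-3 than in SKOV-3, 3 were called with 1 probe set per gene, 3 without _x_at and _s_at probe sets and 3 without a trend in the prior variance. Leaving out 1 array at a time gave 0 to 5 higher and 2 to 3 lower. In SKOV-3 with IL-6 against untreated, 1 member was lower by cyclic loess, and with no filter 3 were higher and 1 lower. With no filter, siltuximab plus IL-6 against IL-6 in SKOV-3 gave 1 higher and 1 lower, and against untreated 1 higher, while a pseudocount of 1 gave 1 lower. In Caov-3 with IL-6 against untreated (2 higher and 2 lower), 1 was lower with quantile normalization, with cyclic loess and without _x_at and _s_at probe sets, and 0 with 1 probe set per gene. A pseudocount of the median gave 1 higher and 0 lower there, and a filter at the 75th percentile 0 and 0. A pseudocount of 1 gave 1 member higher for siltuximab plus IL-6 against IL-6 in Caov-3. Against untreated in Caov-3, 4 were higher with no filter, 0 higher and 0 lower at the 75th percentile, and 0 lower with a pseudocount of the median, 1 probe set per gene, or without _x_at and _s_at probe sets. Counts under other filters and probe set choices changed because fewer or more probe sets were tested; otherwise the cause was not tested.

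With a pseudocount of 111, the median, SRC 213324_at in Caov-3 with IL-6 was 1.57, and with a pseudocount of 1 it was 3.54; the sign held. The share of 2-fold probe sets that were higher with IL-6 in Caov-3 was 12.3%, but 26.4% after quantile and 23.2% after cyclic loess normalization. For siltuximab plus IL-6 against IL-6 in SKOV-3 it was 38.4%, but 49.4% and 50.5%. Leaving out the IL-6 array of SKOV-3 or Caov-3 called 7 or 8 of all probe sets for siltuximab plus IL-6 against untreated, none a member. SRC 213324_at missed the threshold for the line difference without a trend in the prior variance (limma adjusted p 0.0525). Without the treatment block, YES1 202933_s_at missed the threshold (limma adjusted p 0.217). The fit pairs the lines by treatment. No paired analysis by replicate number was possible because the labels carry none.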
